A study of Mus musculus with 16 samples.

Results

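The trophoblast regulator genes described here are 8 genes, Cdx2, Elf5, Tfap2c, Gata3, Tead4, Ascl2, Krt8 and Krt18, out of 26180 mouse genes with a curated RefSeq start site. They were chosen by name, and every peak of H3K4me3, H3K27me3 and Suz12 was collected within 2500 bp on each side of their start sites and over their gene bodies, in the mouse genome GRCm38. The cells were R1 mouse embryonic stem cells (ESCs) that carry MycER, an introduced fusion of a mutant Myc with the ligand-binding part of the estrogen receptor, which is active only in the presence of 4-hydroxytamoxifen (OHT). LIF-ESCs received 100 units per ml of the cytokine LIF and no OHT, whereas Myc-ESCs received 50 nM OHT and no LIF. Both were grown on gelatin without feeder cells, in serum with vitamin C, and both carry the MycER protein. MycER is an exogenous gene, and which MycER clone was used for chromatin immunoprecipitation sequencing (ChIP-seq) is not given in the sources used here. The comparison addresses how the chromatin of these genes differs when ESCs are kept by Myc activity in place of LIF.

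In all, 16 libraries were named, 2 for each culture and antibody and 4 inputs, and 6 peak lists were used, 1 for each culture and antibody. No read counts accompany the peaks, so the depth of each library is unknown. No list per replicate was analysed, and it is not stated whether the libraries behind a list were pooled. No difference between the cultures could therefore be set against replicate error, and no test was run. For H3K4me3 there were 32469 LIF-ESC and 30345 Myc-ESC peaks, and for Suz12 11305 and 13907. The H3K27me3 lists were far less alike, with 3120 and 16717 peaks, so each H3K27me3 value below is to be read beside these numbers. All 6 ESC marker genes examined (Pou5f1, Nanog, Sox2, Zfp42, Esrrb and Klf4) had H3K4me3 at the start site in both cultures.

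The trophoblast is the outer layer of the blastocyst that forms the placenta, and ESCs, which derive from the inner cell mass, rarely enter it. Tead4, the DNA-binding partner of the Hippo pathway co-activator Yap1, acts first in the outer cells and is needed for Cdx2, the homeobox factor that sets up the trophectoderm, and Gata3 acts beside Cdx2. Elf5, Tfap2c and Ascl2 keep trophoblast progenitors and the later placental layers, and Krt8 and Krt18 are the paired keratins of the simple epithelium that the trophectoderm is. H3K4me3 marks the start sites of active and poised genes. H3K27me3 is laid down by Polycomb repressive complex 2 (PRC2), of which Suz12 is a core subunit, and start sites with both marks, called bivalent, are frequent at developmental genes in ESCs.

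PRC2 in mammals occupies mainly CpG-rich promoters, so the letters upstream of the start sites are shown first. The RefSeq promoter table (GRCm38.p6) held 6 of the 8 genes, and Tfap2c and Tead4 were not in it. Below are the 250 bases before the start site of each, 5′ to 3′ on the strand of the gene, with CpG dinucleotides in capitals.
Cdx2 (chr5:147307250-147307499, minus strand): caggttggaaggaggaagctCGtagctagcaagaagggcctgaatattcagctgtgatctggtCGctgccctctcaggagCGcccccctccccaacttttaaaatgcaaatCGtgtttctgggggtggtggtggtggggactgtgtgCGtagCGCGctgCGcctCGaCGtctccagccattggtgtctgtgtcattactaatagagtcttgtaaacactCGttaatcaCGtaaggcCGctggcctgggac
Gata3 (chr2:9878601-9878850, minus strand): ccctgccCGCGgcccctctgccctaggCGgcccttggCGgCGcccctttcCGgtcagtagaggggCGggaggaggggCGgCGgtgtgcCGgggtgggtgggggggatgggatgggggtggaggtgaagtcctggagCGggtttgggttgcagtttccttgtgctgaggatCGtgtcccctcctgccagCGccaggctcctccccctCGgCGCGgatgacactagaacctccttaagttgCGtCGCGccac
Ascl2 (chr7:142969265-142969514, minus strand): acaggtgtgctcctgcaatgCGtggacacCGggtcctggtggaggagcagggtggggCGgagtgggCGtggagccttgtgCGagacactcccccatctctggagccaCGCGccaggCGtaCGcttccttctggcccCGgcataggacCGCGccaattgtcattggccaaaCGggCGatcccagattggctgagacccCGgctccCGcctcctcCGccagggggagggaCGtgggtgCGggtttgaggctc
Krt18 (chr15:102027966-102028215, plus strand): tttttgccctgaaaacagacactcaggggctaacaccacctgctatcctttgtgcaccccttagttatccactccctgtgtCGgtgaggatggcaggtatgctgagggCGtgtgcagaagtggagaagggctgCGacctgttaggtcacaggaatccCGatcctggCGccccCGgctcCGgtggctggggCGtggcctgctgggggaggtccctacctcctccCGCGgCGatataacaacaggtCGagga
Krt8 (chr15:102004343-102004592, minus strand): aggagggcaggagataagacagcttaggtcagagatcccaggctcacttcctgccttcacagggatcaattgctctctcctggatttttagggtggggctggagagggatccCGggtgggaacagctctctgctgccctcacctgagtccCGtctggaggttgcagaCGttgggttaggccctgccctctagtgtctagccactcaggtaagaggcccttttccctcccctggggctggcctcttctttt
Elf5 (chr2:103411848-103412097, plus strand): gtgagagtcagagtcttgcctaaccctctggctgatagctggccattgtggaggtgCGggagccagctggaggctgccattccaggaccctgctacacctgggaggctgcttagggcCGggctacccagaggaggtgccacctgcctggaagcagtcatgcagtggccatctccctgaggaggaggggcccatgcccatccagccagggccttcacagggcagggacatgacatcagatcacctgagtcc
The number of CpGs in these 250 bases was 19 for Gata3, 19 for Ascl2, 13 for Cdx2, 12 for Krt18, 3 for Krt8 and 2 for the first start site of Elf5, against a median of 6 over 32851 promoters. The ratio of observed to expected CpGs was 0.633 for Gata3, 0.670 for Ascl2, 0.690 for Cdx2 and 0.527 for Krt18. It was 0.143 for Krt8 and 0.0814 for Elf5, both under the median of 0.374. The second start site of Elf5 had 8 CpGs and a ratio of 0.402. Of all promoters 66.5% held fewer CpGs than that of Krt18, and the share of genes with Suz12 was not counted by CpG number. In LIF-ESCs Gata3, Ascl2, Cdx2 and Krt18 had a Suz12 peak at the start site, as did 12.1% of all genes, and Krt8 and Elf5 did not. In Myc-ESCs Krt18 had none, and Krt8 had a single short one. The letters CACGTG, the E-box read by Myc with Max, were searched for in the window from 250 bases before to 50 after the start, where their reverse complement reads the same. They were in none of the 7 promoters of these 6 genes, and in 7.15% of all promoters. The letters GGAATG, read by Tead factors, were searched for on both strands and were in the first Elf5 promoter alone of the 7, and in 14.7% of all promoters.

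H3K4me3 lay at the start sites of the same 7 of the 8 genes in both cultures, all but Elf5. Over all genes the share with such a peak was 62.2% for LIF-ESCs and 63.3% for Myc-ESCs. Suz12 was found at 6 of the 8 genes in each culture, against 12.1% (LIF-ESCs) and 14.6% (Myc-ESCs) of all genes. H3K27me3 was found in LIF-ESCs at 3 genes (Cdx2, Tfap2c and Ascl2) and in Myc-ESCs at 5 (the same 3 with Gata3 and Tead4), against 3.82% and 10.7% of all genes. The part that the longer Myc-ESC list plays in this was not tested, but when it was cut to the 3120 highest-scoring peaks the counts were 3 and 4, without Tead4. The LIF-ESC count was 0 with scores of at least 100 and 1 (Cdx2) with a window of 1000 bp, and with GENCODE start sites Gata3 had H3K27me3 in both cultures. Scores of at least 100 were held by 339 LIF-ESC and 3378 Myc-ESC H3K27me3 peaks. Tead4 had no Myc-ESC H3K27me3 at that limit or with a window of 1000 bp. Each of these genes with H3K27me3 in a culture also had H3K4me3 and Suz12 peaks in its window there. The share of all genes with all 3 was not counted. In LIF-ESCs none of the 404 bp of H3K27me3 in these windows was under a Suz12 or H3K4me3 peak. Over the gene bodies, which begin at the start sites, H3K4me3 peaks were found in 7 genes in both cultures (64.3% and 65.3% of all genes). H3K27me3 peaks were found in the bodies of 2 genes in LIF-ESCs versus 5 in Myc-ESCs (3.80% and 10.7% of all genes), and Suz12 peaks in 6 and 6 (12.0% and 14.7%).

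**Figure D1:**
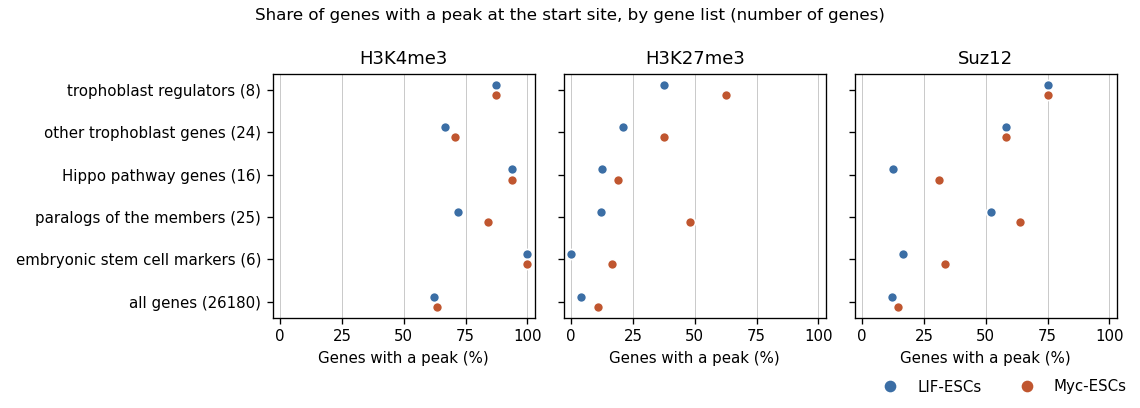
Share of genes with a peak within 2500 bp of a start site (x axis, percent) for the 8 trophoblast regulators, 4 other gene lists and all 26180 genes, with LIF-ESCs in blue and Myc-ESCs in orange; each point is 1 peak list and there are no replicate lists. The H3K27me3 points of the 8 regulators are at 37.5% and 62.5% and those of all genes at 3.82% and 10.7%, whereas the Suz12 share of the regulators was 75.0% in both cultures.

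The genes with a mark in 1 culture only are given by antibody, each beside the share of all genes. With lists of equal length only Gata3 and Krt18 remained among them, and with GENCODE start sites Gata3 did not. For H3K27me3, Gata3 and Tead4 had it in Myc-ESCs only, as did 7.65% of all genes, and no regulator had it in LIF-ESCs only (0.733% of all genes). For Suz12, Krt8 was marked in Myc-ESCs only (3.81% of all genes) and Krt18 in LIF-ESCs only (1.28%). For H3K4me3 no regulator was marked in 1 culture only, where this held for 2.35% (Myc-ESCs only) and 1.21% (LIF-ESCs only) of all genes. Gata3, Tead4 and Krt18 had H3K4me3 and Suz12 without H3K27me3 in LIF-ESCs. Of these 3 genes, 2 had H3K27me3 in Myc-ESCs, beside 58.5% of the 2180 genes of the same LIF-ESC state.

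Among the genes marked in both cultures the covered stretch was mostly longer in Myc-ESCs. All 5 genes with Suz12 in both had more bases under Suz12 peaks in Myc-ESCs, as had 81.4% of all such genes. More bases under H3K4me3 were seen in Myc-ESCs for 6 of 7 genes, against 65.0% of all such genes, and Tfap2c was the exception. All 3 LIF-ESC H3K27me3 peaks at these start sites overlapped a Myc-ESC H3K27me3 peak, as did 55.1% of the LIF-ESC H3K27me3 peaks at any start site.

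**Figure D2:**
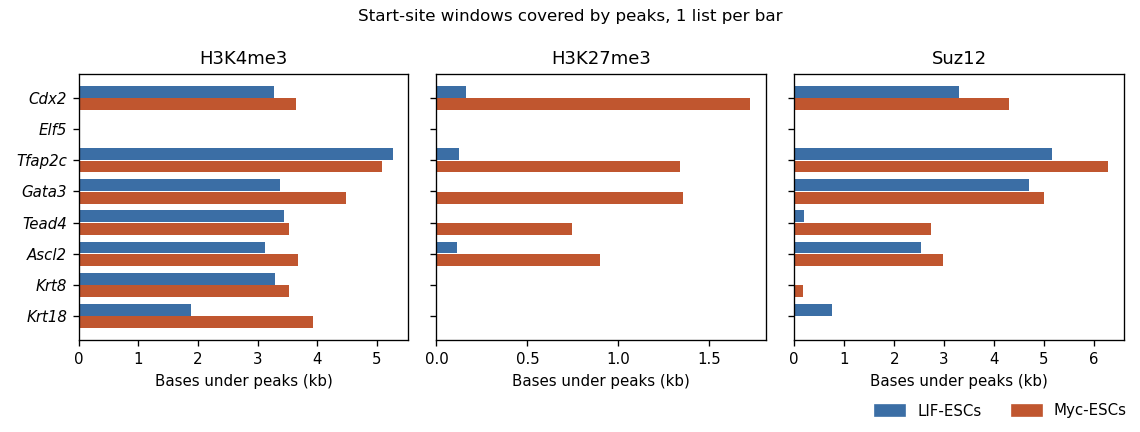
Bases of the start-site window under peaks (x axis, kb, from 0) for each of the 8 genes and 3 antibodies; each bar is 1 peak list, with no error bar because there are no replicate lists. The windows span 5001 bp, except 6399 bp for Tfap2c and 10002 bp for Elf5, which have more than 1 start site. The H3K27me3 bars of Myc-ESCs reach 746 to 1725 bp at 5 genes and those of LIF-ESCs at most 164 bp.

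Cdx2 (chr5:147300900-147307249, minus strand, 3 exons) carried all 3 marks in both cultures. H3K4me3 covered 3282 bp of its start-site window in LIF-ESCs versus 3643 bp in Myc-ESCs, in 1 peak that ran from upstream into intron 1. A second H3K4me3 peak lay over the last exon and beyond in both cultures, 2412 bp long in LIF-ESCs versus 2522 bp in Myc-ESCs. Suz12 covered 3299 bp of the window in LIF-ESCs versus 4299 bp in Myc-ESCs. The main Suz12 peak was 4810 bp long in LIF-ESCs, from 798 bp upstream to exon 2, and 8291 bp in Myc-ESCs, from 1495 bp upstream to beyond the end of the gene. Suz12 peaks therefore lay over 92.7% of the gene body in LIF-ESCs and 100.0% in Myc-ESCs, in 6 peaks in the first and in 1 in the second. In the window, H3K27me3 covered 164 bp in 1 peak of score 64.7 in LIF-ESCs and 1725 bp in 7 peaks with a top score of 338 in Myc-ESCs. The score is the value MACS gave each peak, from its p-value, and grows with depth, so it shows how strong a peak is within its own list and is not comparable between the cultures. Among the 3003 genes with H3K27me3 in either culture, 5.10% had at least as large a surplus of bases in Myc-ESCs as Cdx2. Both upstream H3K27me3 peaks of Myc-ESCs overlapped the single LIF-ESC peak, and another 5 lay in intron 1 within the window. In the gene body beyond the window, LIF-ESCs had 1 more H3K27me3 peak, of 222 bp in intron 2, and Myc-ESCs 6 more, from intron 1 to exon 3.

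Gata3 (chr2:9857078-9878600, minus strand, 6 exons) had H3K4me3 and Suz12 in both cultures and H3K27me3 in the window in Myc-ESCs only. H3K4me3 covered 3376 bp in LIF-ESCs versus 4475 bp in Myc-ESCs, and in Myc-ESCs a second, weak peak of 2063 bp and score 67.9 lay further inside, around exon 3. Suz12 covered 4699 bp of the window in LIF-ESCs in 2 peaks and the whole 5001 bp in Myc-ESCs in 1 peak. The Suz12 domain, in which peaks up to 1000 bp apart were joined, was the longest of the group. It spanned 18133 bp in 18 peaks in LIF-ESCs versus 20841 bp in 6 peaks in Myc-ESCs. It reached 13249 bp and 14404 bp upstream of the start, over the neighbouring transcript 4930412O13Rik, whose start-site window overlaps that of Gata3, so that these peaks cannot be given to Gata3 alone. H3K27me3 covered no base in LIF-ESCs, where the nearest peak lay 7428 bp upstream, and 1356 bp in 8 peaks with a top score of 169 in Myc-ESCs. The Suz12 extent was thus already broad in LIF-ESCs, and all the Myc-ESC H3K27me3 bases of the window were under the Myc-ESC Suz12 peak.

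**Figure D3:**
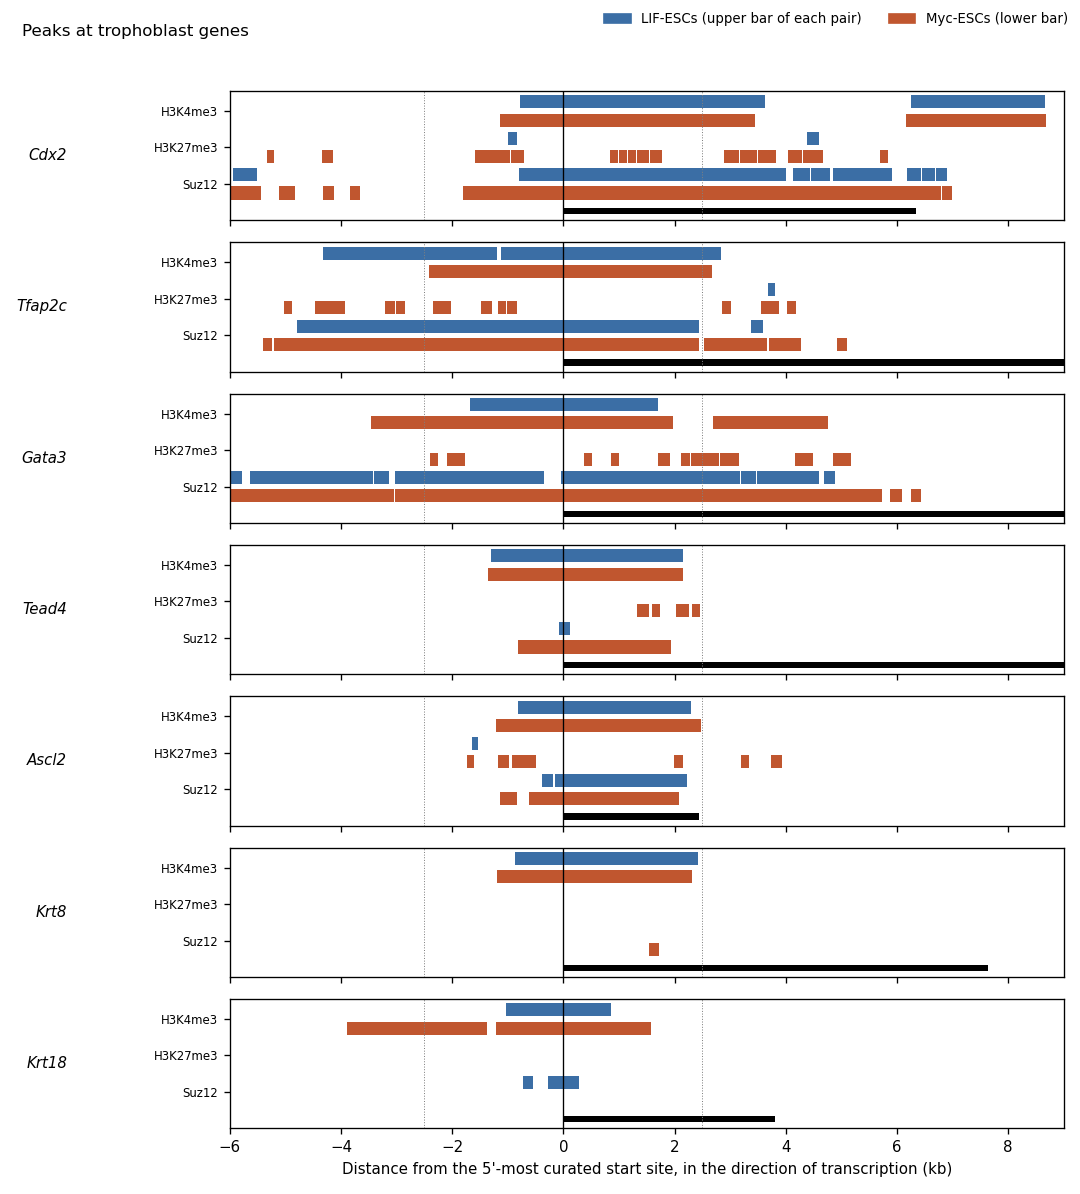
Peaks within 6 kb upstream and 9 kb downstream of the first start site (x axis, kb, in the direction of transcription) at the 7 genes with any peak; for each antibody the upper bar is LIF-ESCs and the lower bar Myc-ESCs, the black bar is the gene, the solid line the start and the dotted lines 2500 bp on each side. The small H3K27me3 peaks sit on both sides of the start at Cdx2, Tfap2c, Gata3 and Ascl2 and on the downstream side at Tead4. The Suz12 bars of Cdx2 and Gata3 are fewer and longer in Myc-ESCs.

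Tead4 (chr6:128227143-128300813, minus strand, 11 exons) differed from Cdx2 and Gata3 in that Suz12 was almost absent in LIF-ESCs. There, 1 Suz12 peak of 192 bp and score 56.1 lay over the start site. In Myc-ESCs a peak of 2743 bp and score 2221 ran from 813 bp upstream to 1929 bp downstream, in intron 1. Of the 4154 genes with Suz12 in either culture, 1.90% had a surplus in Myc-ESCs at least as large. H3K27me3 covered no base in LIF-ESCs, where the nearest peak was 795299 bp away, and 746 bp in Myc-ESCs in 4 peaks, all in intron 1 and of a top score of 88.8. H3K4me3 over the start covered 3441 bp and 3518 bp of the window.

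Within intron 1 of Tead4, LIF-ESCs had another 2 H3K4me3 peaks, away from the start, that had no counterpart in Myc-ESCs. One began 14146 bp into the gene, was 1621 bp long and scored 93.6, and the other began 18605 bp in, was 3456 bp long and scored 587. Across the genome 32.2% of LIF-ESC H3K4me3 peaks that touched no start-site window had no overlap in Myc-ESCs, and 2.00% of those scored as high as the stronger Tead4 peak. H3K4me3 thus covered 7223 bp of the Tead4 gene body in LIF-ESCs versus 2154 bp in Myc-ESCs.

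**Figure D4:**
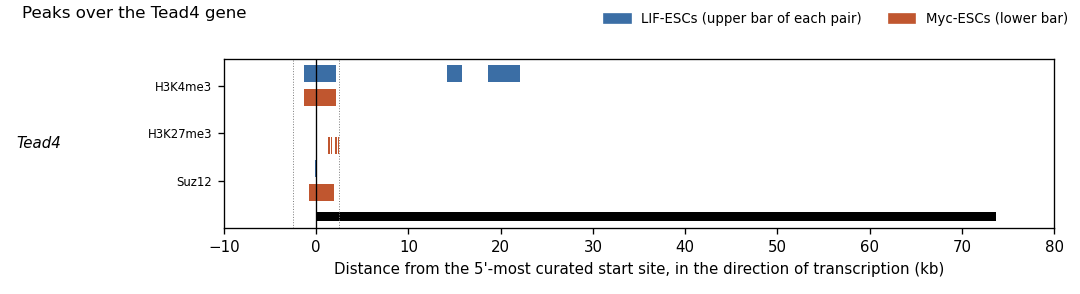
Peaks over the whole Tead4 gene (x axis, kb from the start site in the direction of transcription; black bar, the gene; dotted lines, 2500 bp on each side of the start), with the upper bar of each pair for LIF-ESCs and the lower bar for Myc-ESCs. The H3K4me3 peaks in intron 1, of 1621 and 3456 bp, are in LIF-ESCs alone, and the 2743 bp Suz12 peak and the 4 H3K27me3 peaks are in Myc-ESCs.

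Tfap2c (chr2:172549593-172558622, plus strand, 7 exons), which encodes the AP-2 gamma factor shared by trophoblast and germ cells, has 2 curated start sites 1398 bp apart. H3K4me3 covered 5262 bp of its window, which is wider than those of the other genes with peaks, in 2 peaks in LIF-ESCs versus 5092 bp in 1 peak in Myc-ESCs. The LIF-ESC peak far upstream, 3130 bp long, had no separate equivalent in Myc-ESCs, whose single peak ended 2416 bp before the first start. Suz12 covered 5156 bp of the 6399 bp window in LIF-ESCs versus 6284 bp in Myc-ESCs, which is 80.6% and 98.2% of it. When only the first start site was used, however, the Suz12 difference vanished (-3 bp in Myc-ESCs minus LIF-ESCs), because the added Suz12 lay downstream, in and after intron 3. H3K27me3 covered 126 bp in 1 peak of intron 3 in LIF-ESCs versus 1340 bp in 6 peaks in Myc-ESCs, of which 4 were upstream. The LIF-ESC peak lay entirely within the strongest of these, of score 153.

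Ascl2 (chr7:142966822-142969264, minus strand, 3 exons), the imprinted basic helix-loop-helix factor of the spongiotrophoblast, is short enough for its marks to cover nearly all of it. H3K4me3 lay over 94.0% of the gene body in LIF-ESCs and all of it in Myc-ESCs, with 3119 bp and 3679 bp of the window. Suz12 covered 2546 bp of the window in LIF-ESCs versus 2984 bp in Myc-ESCs, in 3 peaks each. Over the gene body itself Suz12 was slightly less extensive in Myc-ESCs (84.8%, against 90.5%), the added bases being upstream. H3K27me3 covered 114 bp in 1 peak in LIF-ESCs versus 900 bp in 4 peaks in Myc-ESCs, of which 3 were upstream.

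The H3K27me3 peaks that the cultures share upstream of Cdx2 and Ascl2 are shown next, since they are the places where a weak LIF-ESC peak met a Myc-ESC peak. The letters are those of the plus strand of GRCm38.p6, with CpG dinucleotides in capitals. Of the Myc-ESC peaks that overlap the LIF-ESC peak of Cdx2, the weaker is printed, and the stronger, 637 bp long and of score 338, is not.
Cdx2, LIF-ESCs (chr5:147308086-147308249): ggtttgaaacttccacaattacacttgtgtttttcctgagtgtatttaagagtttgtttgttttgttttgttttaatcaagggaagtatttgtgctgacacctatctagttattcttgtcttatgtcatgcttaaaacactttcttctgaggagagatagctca
Cdx2, Myc-ESCs (chr5:147307967-147308191): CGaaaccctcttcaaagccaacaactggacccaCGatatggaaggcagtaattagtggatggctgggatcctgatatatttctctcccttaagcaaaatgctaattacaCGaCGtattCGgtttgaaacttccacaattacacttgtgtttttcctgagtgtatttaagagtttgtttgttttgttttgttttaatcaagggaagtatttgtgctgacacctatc
Ascl2, LIF-ESCs (chr7:142970804-142970917): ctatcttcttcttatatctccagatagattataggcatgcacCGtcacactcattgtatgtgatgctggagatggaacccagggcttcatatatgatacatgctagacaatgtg
Ascl2, Myc-ESCs (chr7:142970874-142970998): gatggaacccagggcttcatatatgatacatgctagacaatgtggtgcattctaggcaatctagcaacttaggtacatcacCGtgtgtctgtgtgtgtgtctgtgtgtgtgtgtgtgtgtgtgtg
The LIF-ESC peaks held 0 CpGs at Cdx2 and 1 at Ascl2, with a GC content of 33.5% and 41.2%. The Myc-ESC peaks printed, which overlap them, held 5 and 1, with 38.7% and 46.4%. Each of these peaks had fewer CpGs than the promoter bases of its own gene printed above. Taken over all their peaks in the window, the Myc-ESC H3K27me3 peaks of Cdx2 and Gata3 had 3.19 and 3.15 CpGs per 100 bp and those of Ascl2 1.56. The value over all start-site H3K27me3 peaks was 2.02 for LIF-ESCs and 1.88 for Myc-ESCs.

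At none of the 5 genes with H3K27me3 did a peak of this mark lie over the start site itself. In Myc-ESCs 3.84% of the 2811 genes with H3K27me3 had the start under a peak. The nearest Myc-ESC peak edges were 718 bp upstream and 834 bp downstream at Cdx2, 488 bp and 1993 bp at Ascl2, 835 bp and 2851 bp at Tfap2c, and 1766 bp and 376 bp at Gata3. At Tead4 the nearest downstream edge was at 1319 bp. Of the 6067 bp under Myc-ESC H3K27me3 peaks in the windows of the 5 genes, 85.6% were also under Myc-ESC Suz12 peaks and 72.6% under H3K4me3 peaks. Over all genes the shares were 65.3% and 50.2%, counting bases once for each gene. The share under Suz12 was 99.2% at Cdx2, 98.1% at Tfap2c and 100.0% at Gata3, but 48.8% at Tead4 and 49.9% at Ascl2. In LIF-ESCs none of the 404 bp of H3K27me3 in the windows of Cdx2, Tfap2c and Ascl2 was under Suz12 or H3K4me3. In the windows of all genes 62.6% and 34.5% were. The other LIF-ESC H3K27me3 peak of Cdx2, in intron 2 and outside the window, lay mostly under LIF-ESC Suz12 peaks.

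Krt8 (chr15:101996711-102004342, minus strand) and Krt18 (chr15:102028216-102032026, plus strand) are 23874 bp apart and encode keratins that pair into 1 filament. Neither had H3K27me3 in the window or the gene body in either culture. The closest Myc-ESC H3K27me3 peak was 62221 bp from the start of Krt8 and 38347 bp from that of Krt18. Krt8 had 3293 bp of H3K4me3 in LIF-ESCs versus 3521 bp in Myc-ESCs, and its only Suz12 peak, of 181 bp and score 53.7, was in intron 1 in Myc-ESCs. That peak is close to the lowest score of the list, 50.1, and was absent from lists of equal length.

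At Krt18, H3K4me3 and Suz12 differed in opposite directions. Its H3K4me3 covered 1883 bp in LIF-ESCs, the least of the 7 genes, and 3932 bp in Myc-ESCs. In LIF-ESCs there was 1 peak of score 405, and in Myc-ESCs a peak of score 879 over the start and a second upstream, of score 303. The surplus in Myc-ESCs was thus 2049 bp, but within 1000 bp of the start it was 149 bp, most of it lying further out. Of the 16889 genes with H3K4me3 in either culture, 2.29% had a surplus in Myc-ESCs at least as large. Suz12 covered 754 bp in LIF-ESCs, in 2 peaks of which the stronger lay over the start site with score 147, and nothing in Myc-ESCs. Of the genes with Suz12 in either culture, 2.09% had a deficit in Myc-ESCs at least as large. Krt18 was the only gene of the group with Suz12 in LIF-ESCs and none in Myc-ESCs, and this held with scores of at least 100, with lists of equal length and with the other windows and start sites tried. Among the other trophoblast genes described below, Id2, Hopx, Krt19 and Hand1 differed in the same directions, but of these only Id2 had no Suz12 in Myc-ESCs. Id2 had 905 and 0 bp of Suz12 and 4171 and 5001 bp of H3K4me3 in LIF-ESCs and Myc-ESCs. Arid3a, of the same list, had Suz12 in Myc-ESCs only (191 bp).

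Elf5 (chr2:103412098-103450989, plus strand, 7 exons), an Ets factor of trophoblast stem cells whose promoter is known to be DNA-methylated in ESCs, had no peak of any antibody at its start sites or in its gene body. The nearest H3K4me3 peak was 46426 bp from its first start site in LIF-ESCs versus 71092 bp in Myc-ESCs. The nearest H3K27me3 peaks were 151833 bp and 151350 bp away and the nearest Suz12 peaks 153316 bp and 152775 bp. With unknown depth, a peak below the calling threshold cannot be told apart from none.

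Other genes of the trophoblast were read in the same way, in a list of 24. H3K4me3 was found at 16 in LIF-ESCs versus 17 in Myc-ESCs (66.7% and 70.8%, beside 62.2% and 63.3% of all genes). Suz12 was found at 14 and 14 (58.3% in each, beside 12.1% and 14.6%), and H3K27me3 at 5 and 9 (20.8% and 37.5%, beside 3.82% and 10.7%). H3K27me3 in Myc-ESCs only was seen at 6 of them (25.0%, beside 7.65% of all genes). Among these, Sox21, a Sox factor, had 1459 bp in 2 peaks and Tfap2a 850 bp in 6 peaks. Eomes, the T-box factor that acts beside Cdx2, had 616 bp in 4 peaks. Krt7, Cdh3 and Peg10 had 1 peak each, of 127 to 199 bp. In LIF-ESCs only, H3K27me3 was seen at Hopx and Phlda2 (8.33%, beside 0.733% of all genes), each in 1 peak, of 149 and 152 bp. Of the 9 with H3K4me3 and Suz12 but no H3K27me3 in LIF-ESCs, 5 had H3K27me3 in Myc-ESCs, a share of 55.6% beside the 58.5% of all genes given above. Gcm1, Plet1, Tpbpa, Prl3d1, Prl2c2, Rhox6 and Rhox9, among them genes of the differentiated placental layers, had no peak of any antibody at the start site, as Elf5 had none.

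Among 16 Hippo pathway genes, 15 had H3K4me3 in both cultures (93.8% in each, beside 62.2% and 63.3% of all genes). Suz12 was found at 2 in LIF-ESCs versus 5 in Myc-ESCs (12.5% and 31.2%, beside 12.1% and 14.6% of all genes). H3K27me3 was found at 2 and 3 (12.5% and 18.8%, beside 3.82% and 10.7%). Tead1, the paralog of Tead4, had values like those of Tead4, with no Suz12 in LIF-ESCs versus 3263 bp in Myc-ESCs, and H3K27me3 of 0 and 1083 bp. Lats2, a kinase that inhibits Yap1, had H3K27me3 in LIF-ESCs only (178 bp), and Sav1, a scaffold of the pathway, in Myc-ESCs only (176 bp). Amotl2, a scaffold that holds Yap1 out of the nucleus, had 822 bp of Suz12 in Myc-ESCs only, and Wwtr1, the Yap1 paralog Taz, 180 bp. Tead2 and Tead3 had H3K4me3 alone. In the list of 25 paralogs, which shares 7 genes with the other lists, H3K27me3 was found at 3 (LIF-ESCs) and 12 (Myc-ESCs) and Suz12 at 13 and 16. Tfap2a, Tfap2b, Tfap2d and Tfap2e, the paralogs of Tfap2c, all had Suz12 in both cultures and H3K27me3 in Myc-ESCs. They differed in H3K4me3, which was in both cultures at Tfap2a and Tfap2e and in Myc-ESCs only at Tfap2b (2205 bp) and Tfap2d (2135 bp). Of these paralogs only Tfap2d had H3K27me3 in LIF-ESCs (151 bp). Cdx1, a paralog of Cdx2, had H3K4me3 over 1870 bp in LIF-ESCs and none in Myc-ESCs, where it had 801 bp of Suz12.

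The genes whose 6 values were most like those of each regulator, by the sum of the absolute differences in bases covered over the 6 lists, were found among all 26180 genes. For Cdx2 they were Crhr1, at a summed difference of 1156 bp, and Msx3, at 1233 bp. For Gata3 they were Zfp503 (676 bp) and Prox1 (1143 bp), and for Tfap2c Wnt11 (1744 bp) and Pdgfra (2067 bp). Thrb (527 bp) and Usp3 (720 bp) were the closest to Tead4, and Galnt16 (650 bp) and B3gat2 (754 bp) to Ascl2. Bases were not scaled to the length of the window. The window of Thrb spans 10002 bp against 5001 bp for Tead4, and those of Wnt11 and Pdgfra 8734 and 8916 bp against 6399 bp for Tfap2c. Prox1 (6313 bp) and Galnt16 (5520 bp) also have longer windows than their regulators. Fmnl2 (75 bp) and Norad (142 bp) were the closest to Krt8, and Lypd3 (737 bp) and Car4 (772 bp) to Krt18. Lypd3 and Car4 were picked on these same values, so their likeness to Krt18 is no separate result. Lypd3 had 1706 and 3435 bp of H3K4me3 and 691 and 0 bp of Suz12 in LIF-ESCs and Myc-ESCs. Car4 had 2035 and 3676 bp of H3K4me3 and 1118 and 0 bp of Suz12.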

How the data were processed

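H3K4me3, H3K27me3 and Suz12 were profiled by ChIP-seq in LIF-ESCs and Myc-ESCs. Per the study's methods and the submitters' processing notes, the authors aligned reads to GRCm38 (mm10) with Bowtie2 2.2.3 and called peaks with MACS 1.4.2. They deposited 1 list for each culture and antibody, with peak positions and a score for each peak that MACS derives from its p-value. Scores start at 50.0 and grow with depth, so lists from deeper libraries can hold more and longer peaks, and the depth of each list is unknown.

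Peaks were compared with 45756 curated RefSeq transcripts of 26180 gene symbols on 21 chromosomes, with Python 3.11.15, numpy 2.4.6, pandas 2.3.3 and pysam 0.24.0. A gene was marked when a peak touched the 2500 bp on either side of a start site. Covered bases were counted in that window after joining the windows of a gene. The interval code was tested on simulated data. Coordinates count from 1. The 8 genes and the other gene lists were chosen with earlier results of these data known, so counts over them are descriptions. From the lists of other trophoblast, Hippo pathway and paralogous genes, values are given only for genes with a peak of an antibody in 1 culture only. The most similar genes are the 2 with the smallest summed difference. The counts of the 8 genes with a peak at the start site, or with one in 1 culture only, and the covered bases were repeated with scores of at least 100, with the longer list of each antibody cut to the length of the shorter, with windows of 1000 and 5000 bp, with the first start site alone and with GENCODE start sites. Gene-body counts were repeated with the first 2 of these.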

Additional observations from a re-analysis of the deposited data

How the results depend on the processing

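The H3K4me3 counts moved least, and the H3K27me3 counts depended on the processing. LIF-ESC H3K27me3, at 3 start sites as reported, was 0 with scores of at least 100 and 1 (Cdx2) with a window of 1000 bp. Those with it in Myc-ESCs only, 2 as reported, were 4 with scores of at least 100 (Tead4 no longer among them), 1 with lists of equal length (Gata3) and 1 with GENCODE start sites (Tead4). The limit of 100 left 339 LIF-ESC and 3378 Myc-ESC H3K27me3 peaks, so the lists compared at it differ widely in length. The share of all genes at that limit was not counted. In the gene bodies, H3K27me3 in LIF-ESCs was found at 0 regulators with scores of at least 100, and in Myc-ESCs at 3 with scores of at least 100 and at 3 with lists of equal length. Suz12 in Myc-ESCs only, seen at Krt8, was at 0 with lists of equal length and at 0 with a window of 1000 bp, and with scores of at least 100 the single gene was Tead4 in place of Krt8. The other 74 recomputed counts stayed within 1.5 times the reported count, but the genes behind a count could change. They include counts that were 0 in every setting, such as those of genes with H3K4me3 in 1 culture only. With a window of 1000 bp, Tead4 had no H3K27me3 in Myc-ESCs, and the genes with it in Myc-ESCs only were Tfap2c, Gata3 and Ascl2. With the first start site alone these were Tfap2c, Gata3 and Tead4, since Tfap2c then had no H3K27me3 in LIF-ESCs. With lists of equal length, in which the Myc-ESC H3K27me3 list kept the 3120 peaks of the highest score, Myc-ESCs still had more H3K27me3 bases than LIF-ESCs at Cdx2 (698 bp), Tfap2c (520 bp), Gata3 (392 bp) and Ascl2 (322 bp), and Tead4 had none in either culture. Of the differences in covered bases 1 reversed, Suz12 at Tfap2c with the first start site alone (-3 bp), 54 moved and 89 were equal. The equal ones include those that were 0 in every setting for lack of peaks, at Elf5 for each antibody and at Krt8 and Krt18 for H3K27me3. With a window of 1000 bp the H3K4me3 surplus in Myc-ESCs was 149 bp at Krt18, and the difference was 0 bp at Gata3, Tead4 and Tfap2c. No paired analysis was possible because the result comes from no test and there are no lists per replicate.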

Other observations

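The protein-coding genes next to the regulators were read in the same windows, and they were chosen after the values of the regulators had been seen. Only protein-coding genes count as neighbours here, so 4930412O13Rik beside Gata3 is not among them. Cdx2 lies in the ParaHox cluster. Pdx1, 25052 bp from Cdx2, had 1981 and 2429 bp of H3K4me3, 0 and 422 bp of H3K27me3 and 2635 and 1840 bp of Suz12 in LIF-ESCs and Myc-ESCs. Gsx1, the third ParaHox gene, 109953 bp from Cdx2, had 3579 and 3950 bp of H3K4me3, 0 and 688 bp of H3K27me3 and 4523 and 4612 bp of Suz12. Urad, the next gene on the other side of Cdx2, had no peak at its start site. Beyond Elf5, Cat, a catalase gene 2915 bp away, had 2973 and 3201 bp of H3K4me3 and neither of the other marks, and Ehf, an Ets gene on the other side, had no peak. Bmp7, the next gene after Tfap2c at 309390 bp, had 0 and 873 bp of H3K27me3 and 2269 and 4312 bp of Suz12. Celf2, the next gene on 1 side of Gata3 but 2460880 bp away, had 0 and 573 bp of H3K27me3 and 616 and 1085 bp of Suz12. Tspan9, on 1 side of Tead4 at 83565 bp, had 0 and 265 bp of H3K27me3 and 688 and 1101 bp of Suz12. Th, on 1 side of Ascl2 at 66827 bp, had 0 and 148 bp of H3K27me3 and no Suz12. Fam209, Taf3, Tulp3, Tspan32, Krt78 and Eif4b, the other neighbours, had neither mark.

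Of the 6 ESC marker genes, 2 had Polycomb peaks. Esrrb had 2054 bp of Suz12 in LIF-ESCs versus 2910 bp in Myc-ESCs, and 0 and 691 bp of H3K27me3. Klf4 had 0 bp of Suz12 in LIF-ESCs versus 3264 bp in Myc-ESCs, in 5 peaks, and no H3K27me3, so that its Suz12 difference was larger than that of Tead4 (2551 bp). H3K4me3 covered fewer bases in Myc-ESCs at Pou5f1 (7776 and 7134 bp), Nanog (5077 and 3780 bp), Zfp42 (5001 and 4192 bp), Esrrb (3622 and 3102 bp) and Klf4 (5001 and 4638 bp), and all 5001 bp of the Sox2 window in both cultures.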
